A study of Mus musculus with 2 samples.

Results

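Kainate receptors are 1 of the ion channel families that glutamate opens. Their subunits are encoded by Grik1 to Grik5, and the transmembrane proteins Neto1 and Neto2 attach to the channel as auxiliary subunits. All 7 genes were found in the gene tables by their identifiers, among 21474 protein-coding genes and 69691 listed features in all. They were taken as a family by name and not by their values, although earlier results of these data were known. The data were 2 RNA-seq libraries from dissected areas of layer V of the cerebral cortex of a wild type male C57Bl6 mouse, strain B6NCrl, aged 8 months. Each area measured 8000 square microns and was entered as 50 cells. The labels call the libraries biological replicates 1 and 2 but name the same donor for both, so the SD given here is the spread between areas that may come from 1 animal. There is a single group, no treatment and no second genotype, so each side of a difference between the areas is 1 library and no p-value was computed.

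Kainate receptors carry slow, small synaptic currents and also act at nerve terminals, where they adjust transmitter release. Grik1, Grik2 and Grik3 encode subunits that can form a channel without the others. Grik4 and Grik5 encode subunits with high affinity for kainate that need one of those partners. Neto1 and Neto2 slow the closing of kainate receptors, and Neto1 also associates with NMDA receptors.

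Depth was 26059117 expected counts (estimated reads) in replicate 1 and 28276843 in replicate 2, of which 7946 and 8984 fell on the 7 genes. Markers of pan-neuronal, excitatory and layer 5 cells reached 1 TPM (a transcript level scaled for length and library size) in both areas for 8 of 8, 6 of 6 and 8 of 8 genes. Markers of GABAergic neurons did so for 11 of 12, of astrocytes for 5 of 6, of oligodendrocytes for 6 of 6, of oligodendrocyte precursors for 1 of 5, of microglia for 6 of 6 and of endothelial cells for 4 of 5. Other cell types were thus present beside layer 5 neurons, and fewer cells of a type and less RNA per cell cannot be told apart.

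All 7 genes reached 1 TPM in both areas, against 51.5% of protein-coding genes. The auxiliary subunits were the most abundant, Neto1 at 29.4 ± 1.24 TPM (SD, n = 2) and Neto2 at 23.0 ± 0.76. Grik5 followed at 16.9 ± 0.028, Grik2 at 9.24 ± 1.70, Grik1 at 5.22 ± 1.92, Grik3 at 3.55 ± 1.97 and Grik4 at 2.41 ± 0.55. From Neto1 down to Grik1 the values of neighbouring genes did not overlap between the areas. Grik1 and Grik3 overlapped in range although Grik1 was higher in each area. Grik3 and Grik4 changed places, since Grik4 was the higher in replicate 1 and Grik3 in replicate 2. Neto1 lay above 84.1% of protein-coding genes in replicate 1 and 84.3% in replicate 2, and Grik4 above 54.0% and 51.0%.

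**Figure D1:**
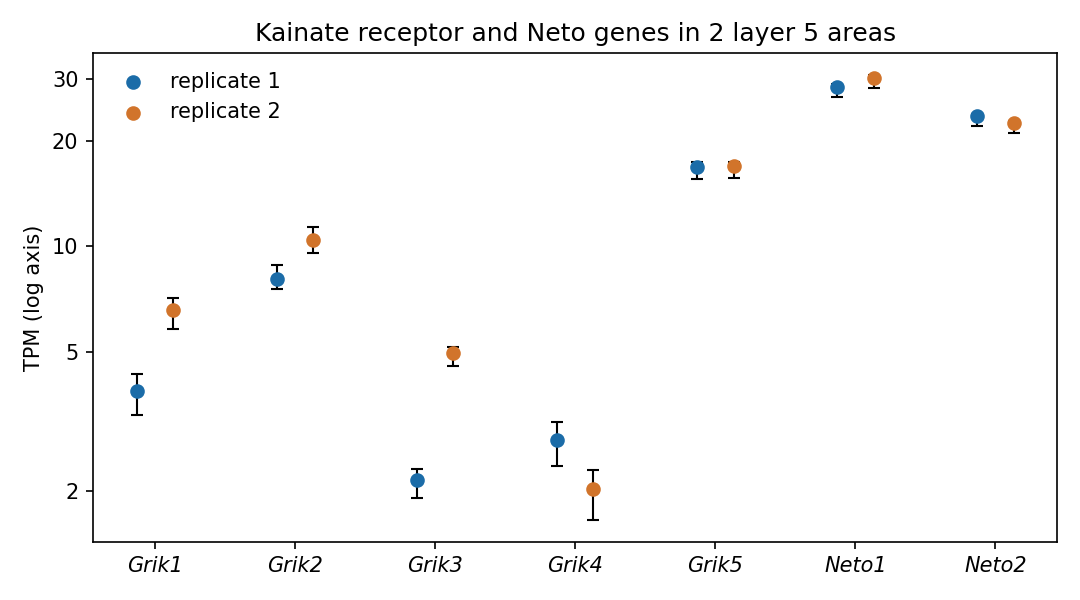
TPM of each of the 7 genes (log axis) in replicate 1 and replicate 2; points are the deposited TPM, and bars are the deposited interval around the posterior mean TPM. The Neto1, Neto2 and Grik5 points of the areas nearly coincide, while those of Grik3 lie apart at 2.15 and 4.94 TPM.

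Grik1, whose receptors are known in cortex mainly from interneurons, had 3.86 TPM from 210 counts in replicate 1 and 6.58 TPM from 374 counts in replicate 2. Replicate 2 was the higher area, by 1.64-fold in counts per total, with an exact Clopper-Pearson 95% interval of 1.38 to 1.95 that covers counting error only, as do all intervals of counts here. The gene (ENSMUSG00000022935.10) spans chr16:87895900-88290265 of mm10 on the minus strand.

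Grik1 was the member whose transcript mixture differed most between the areas. The tables list 3 transcripts of it. Grik1-201 and Grik1-202 share their coding sequence except for 1 exon in the GENCODE M21 annotation, exon 16 of the 17 of Grik1-202, at chr16:87896809-87896895 on the minus strand. It holds 87 bases, or 29 whole codons, and lies near the end of the coding sequence, which encodes the intracellular tail of the subunit. The deposited lengths of the transcripts, 2601 and 2688 bases, differ by the same 87 bases. The tables use other versions of both transcripts, shorter than those of M21, so that this exon also separates them there rests on that difference in length. It is printed because it is the coding stretch in which the M21 versions differ. Capitals mark the exon, with 30 coding bases of each neighbouring exon in lower case, 5′ to 3′, from the GENCODE M21 transcripts (GRCm38).
Grik1-202: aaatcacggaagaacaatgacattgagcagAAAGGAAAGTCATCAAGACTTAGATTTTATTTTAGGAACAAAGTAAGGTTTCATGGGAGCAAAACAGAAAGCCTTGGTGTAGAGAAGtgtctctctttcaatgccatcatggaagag
Grik1-201: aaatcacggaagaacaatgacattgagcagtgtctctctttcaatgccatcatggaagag

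Grik1-201, which skips the exon, took 69.8% of Grik1 TPM in replicate 1 and 39.2% in replicate 2. Grik1-202, which includes it, took 30.2% and 60.8%. The difference lay in the exon-containing transcript: Grik1-202 had 1.17 TPM in replicate 1, within deposited bounds of 0.561 to 1.87, and 4.0 TPM in replicate 2, within 2.63 to 5.02. Grik1-201 had 2.69 TPM within 1.79 to 3.32 and 2.58 TPM within 1.39 to 3.75. The bounds overlap for Grik1-201 and do not for Grik1-202, and what level they stand for is not stated. The third transcript, Grik1-203, which ends in another exon in M21, was listed at 0 in both areas.

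A shift of 20 percentage points or more in the leading transcript was found in 1 of the 3 members with several transcripts, Grik1. Among 4970 protein-coding genes with 2 or more transcripts and 300 to 3000 counts summed over the areas, 25.7% shifted that much, and the Grik1 shift of 30.5 points exceeded that of 86.6% of them. Both the range of counts and the limit of 20 points were set after the values were seen.

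**Figure D2:**
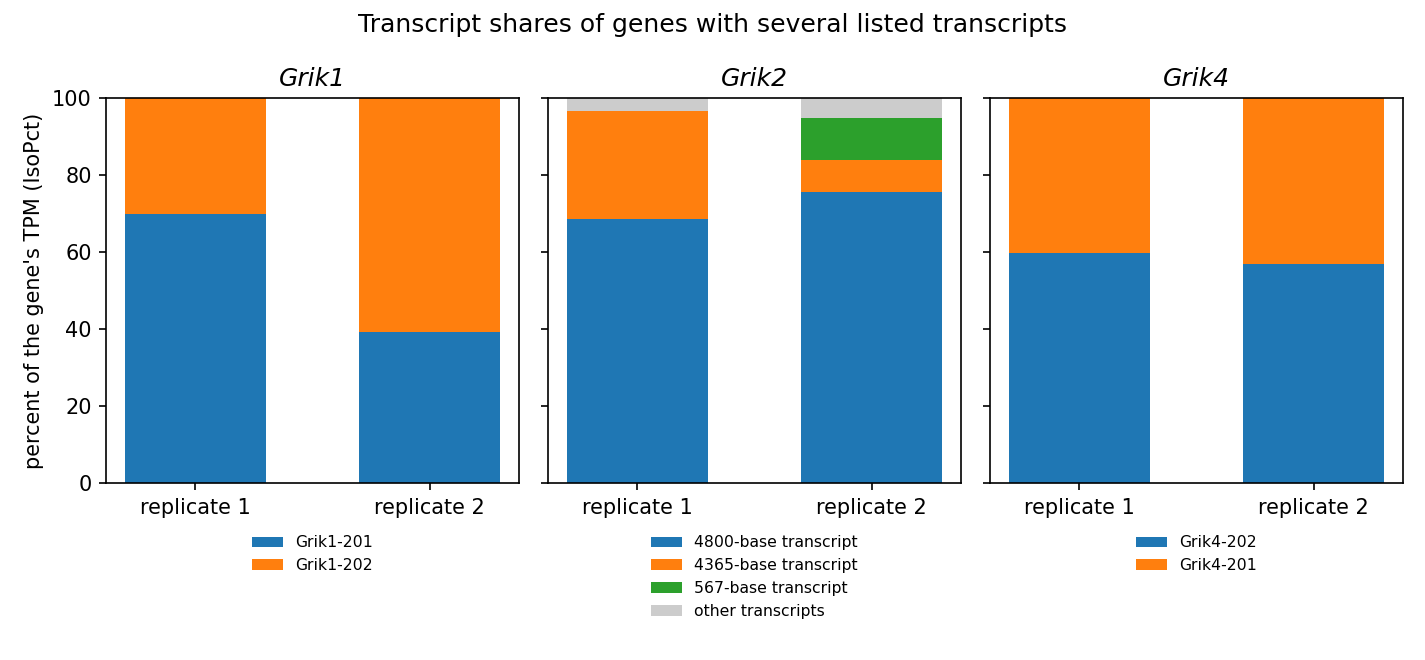
Percent of the gene's TPM (IsoPct) taken by each transcript of Grik1, Grik2 and Grik4 in each area, with transcripts under 5% in both areas pooled as other transcripts. The Grik1 bars exchange their larger part, 69.8% Grik1-201 against 60.8% Grik1-202, while the Grik4 bars nearly match.

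Grik2, the subunit that kainate receptors of principal neurons are chiefly built on, had 8.04 TPM from 781 counts in replicate 1 and 10.4 TPM from 947 counts in replicate 2. Replicate 2 was higher by 1.12-fold in counts per total (1.02 to 1.23). Grik2 (ENSMUSG00000056073.10, chr10:49094833-49788766, minus strand) had the most complex mixture, with 8 transcripts listed and 2 of them at 0 in both areas. A transcript of 4800 bases led with 68.7% in replicate 1 and 75.5% in replicate 2, or 5.52 and 7.88 TPM. Its identifier is not in the M21 annotation, so its exons are not described here.

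A transcript of 4365 bases took 28.04% of Grik2 in replicate 1 and 8.44% in replicate 2, or 2.25 TPM (deposited bounds 1.85 to 2.60) and 0.88 TPM (0.621 to 1.14). Another of 567 bases was at 0 in replicate 1 and took 10.8% in replicate 2, from 11.7 counts. Each has the length of a Grik2 transcript that M21 lists under another identifier as a retained intron, a class that keeps intron sequence and has no coding sequence there. These 2 transcripts together held 2.25 TPM in replicate 1 and 2.01 in replicate 2, but from 207 and 95.4 counts. Of the 2.01 TPM, 1.13 was the 567-base transcript, within deposited bounds of 0.563 to 1.89, so their sum rests on few counts there. The remaining transcripts held 5.78 and 8.43 TPM. Transcripts with the lengths of Grik2-204 and Grik2-205, protein-coding in M21, took at most 2.66% and 0.41%.

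Grik3, a subunit of low sensitivity to glutamate, differed most between the areas in level. It had 2.15 TPM from 410 counts in replicate 1 and 4.94 TPM from 976 counts in replicate 2. The fold was 2.30 in TPM and 2.19 in counts per total (1.95 to 2.47), higher in replicate 2. On log2(TPM + 1), a scale that understates the change of low genes, the difference was 0.92, just under 2-fold. Of protein-coding genes with a mean of 1 to 5 TPM, 75.4% differed less than Grik3 on that scale. Grik3 (ENSMUSG00000001985.9, chr4:125490700-125714173, plus strand) has 1 listed transcript, of 8973 bases.

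Grik5 was the most abundant pore subunit, and on log2(TPM + 1) it differed least of the 7 genes between the areas. It had 16.9 TPM in each area, from 1356 and 1405 counts, and its fold in counts per total was 0.955 (0.886 to 1.03). Only 0.367% of protein-coding genes between 5 and 20 TPM differed less on log2(TPM + 1). Grik5 (ENSMUSG00000003378.8, chr7:25009849-25072346, minus strand) was listed with 1 transcript.

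Grik4, the other subunit that needs a partner, was the least abundant. It had 2.80 TPM from 289 counts in replicate 1 and 2.02 TPM from 212 counts in replicate 2, a 1.48-fold higher value in replicate 1 by counts per total (1.23 to 1.77). Grik5 exceeded it 6.02-fold and 8.37-fold in TPM. Grik4 (ENSMUSG00000032017.10, chr9:42518135-42944493, minus strand) has 2 transcripts with the same coding sequence of 2868 bases. Grik4-202, which has extra exons at its start and a longer end, took 59.7% and 56.9%, and Grik4-201 40.3% and 43.1%. This mixture differed by under 3 points between the areas.

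Among the pore subunits, Grik4 and Grik5 together held 58.3% of TPM in replicate 1 and 46.3% in replicate 2. Their sum was 19.7 and 18.9 TPM, whereas that of Grik1, Grik2 and Grik3 was 14.1 and 22.0 TPM. Grik1, Grik2 and Grik3 were each higher in replicate 2, and Grik5 was level. Grik5 alone made up 50.0% and 41.3% of the family, Grik2 23.9% and 25.5%, Grik1 11.5% and 16.1%, Grik3 6.38% and 12.1%, and Grik4 8.31% and 4.94%.

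Neto1 had 28.6 TPM from 2110 counts in replicate 1 and 30.3 TPM from 2316 counts in replicate 2, with a fold in counts per total of 1.01 (0.953 to 1.07). Neto2 had 23.5 TPM from 2790 counts and 22.5 TPM from 2754 counts, with a fold of 0.910 (0.863 to 0.959). Both were nearly level between the areas. Neto1 exceeded Neto2 in TPM in each area and held 56.1% ± 1.84 (SD, n = 2) of their sum, although Neto2 had more counts, its listed transcript of 5610 bases being longer than the 3531 bases of Neto1. Summed Neto TPM was 1.55 times summed Grik TPM in replicate 1 and 1.29 times in replicate 2. Each gene was listed with 1 transcript, Neto1 as ENSMUSG00000050321.2 at chr18:86394952-86506718 on the plus strand and Neto2 as ENSMUSG00000036902.9 at chr8:85636588-85700924 on the minus strand.

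None of the 7 genes was beyond 2-fold between the areas on log2(TPM + 1), and 1 of them, Grik3, was by the plain ratio of TPM. Of 11841 protein-coding genes with a mean of 1 TPM or more, 10.3% were beyond 2-fold on log2(TPM + 1) and 15.8% by the plain ratio. On log2(TPM + 1) the share was 21.0% between 1 and 5 TPM, where Grik3 and Grik4 lie. It was 9.83% between 5 and 20 TPM, where Grik1, Grik2 and Grik5 lie. Between 20 and 100 TPM, where Neto1 and Neto2 lie, it was 3.20%. On that scale Grik1 differed more than 74.6% of the genes in its range of TPM, Grik2 than 47.3% and Grik4 than 36.3%. Neto1 differed more than 18.0% and Neto2 more than 13.7% of the genes in theirs. With a pseudocount of 0.1 in place of 1, Grik3 passed 2-fold at 1.16, and so did 34.9% of the genes between 1 and 5 TPM; by the plain ratio it was 36.6% of them. The median log2 ratio of replicate 2 over replicate 1 was 0.083 over the 7 genes, 5 of them higher in replicate 2, and 0.046 over all 11841 genes, 6396 of them higher in replicate 2.

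**Figure D3:**
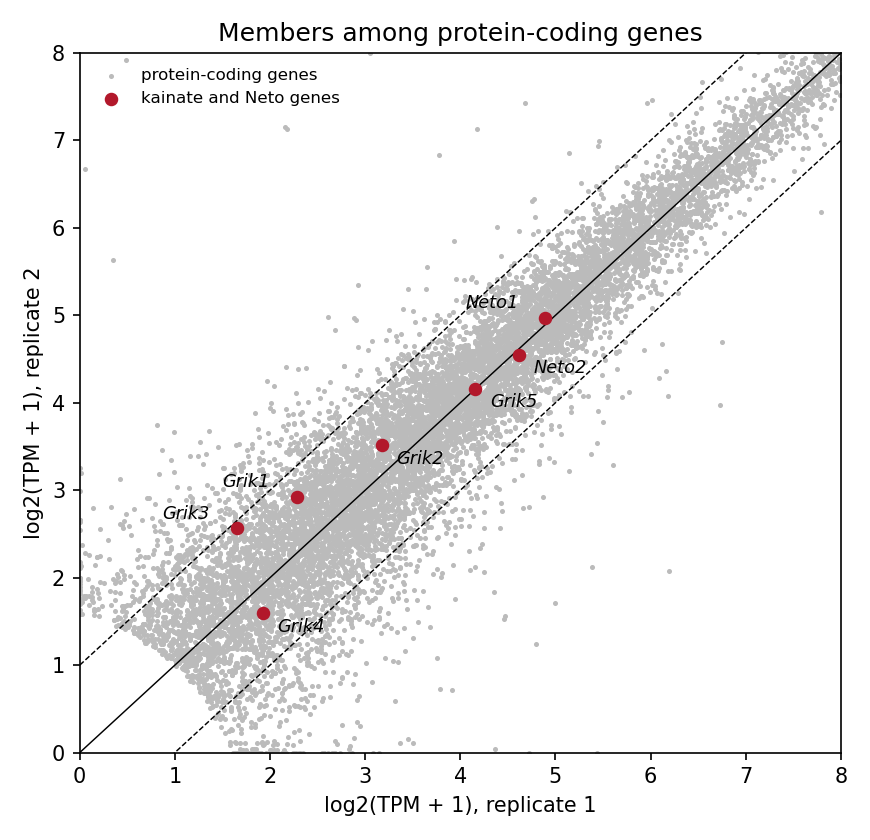
log2(TPM + 1) of protein-coding genes with a mean of 1 TPM or more in replicate 1 (horizontal) and replicate 2 (vertical), up to 8 on each axis, with the 7 members in red, the line of equal values solid and 2-fold dashed. All members lie between the dashed lines, with Grik3 closest to one of them.

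Cell markers differed beside the higher Grik1 and Grik3 values of replicate 2. The 12 GABAergic markers had no common direction. Sst, a marker of 1 interneuron class, had 194 TPM in replicate 1 and 2859 in replicate 2. Pvalb, a marker of another class, had 918 and 145 TPM, and Gad1, an enzyme of GABA synthesis, 438 and 65.2. The summed TPM of the list was 4016 and 5793, and without Sst the other 11 markers summed to 3822 and 2934. Most of that second sum was Cck, at 2355 and 2530 TPM, beside 23.9 and 31.8 for Gad2 and 4.43 and 3.4 for Slc32a1. The lower value of that sum in replicate 2 came mainly from Pvalb and Gad1. Whether the Cck RNA came from GABAergic neurons was not tested, so neither sum measures their share. By number, 8 of the 12 markers were higher in replicate 2 and 4 in replicate 1. On log2(TPM + 1), 4 of these markers exceeded 2-fold towards replicate 2 and 2 towards replicate 1. Markers of layer 6, of which 5 of 6 were matched, summed to 14.2 and 36.03 TPM, where Rprm had 6.59 and 23.8. Of the matched markers, 3 were higher in replicate 2. Ntsr1 alone was higher in replicate 1, at 0.75 and 0 TPM, and Osr1 had 0 counts in both areas. Those of layers 2/3 and 4 summed to 137 and 139 TPM, of which Lamp5 held 108 and 117. Those of layer 5 summed to 3126 and 3858, of which Pcp4 held 2922 and 3599. Higher in replicate 2 were 2 of the 6 genes for layers 2/3 and 4 and 6 of the 8 for layer 5. The other sums in replicates 1 and 2 were 8892 and 10403 for the pan-neuronal list, 1389 and 1591 for the excitatory list, 616 and 715 for astrocytes, 539 and 903 for oligodendrocytes, 10.5 and 32.8 for their precursors, 217 and 70.5 for microglia, and 92.7 and 45.2 for endothelial cells. No other gene of these lists was at 0 counts in both areas. Their part in the Grik1 and Grik3 levels and in the Grik1 transcripts was not tested.

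Kainate subunits were a small part of the ionotropic glutamate receptor RNA. They held 5.69% of its TPM in replicate 1 and 6.93% in replicate 2, beside 63.7% and 55.4% for the AMPA receptor genes and 28.9% and 35.6% for the NMDA receptor genes. Summed TPM of the kainate family was 33.7 and 40.9, that of the AMPA family 378 and 327 and that of the NMDA family 171 and 210. The AMPA subunit genes Gria2 at 207 ± 25.4 TPM (SD, n = 2), Gria3 at 86.3 ± 3.61 and Gria1 at 33.1 ± 3.73 and the NMDA subunit genes Grin1 at 105 ± 32.2 and Grin2b at 60.5 ± 9.83 all exceeded Grik5. Grin2a, the next NMDA gene by mean TPM, was below Grik5 in both areas, at 15.0 ± 0.69, and Grin3b had 0 counts in both. Neto1 and Neto2 thus stood nearer to AMPA subunits than to any Grik gene: on log2(TPM + 1) over the 2 areas, the nearest ionotropic receptor gene was Gria1 for Neto1, at a Euclidean distance of 0.31, and Gria4 for Neto2, at 0.23. The nearest was Grin2a for Grik5 at 0.24, Grin2c for Grik4 at 0.46 and Grin3a for Grik2 at 0.72. With 2 areas this is likeness of level and little more.

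**Figure D4:**
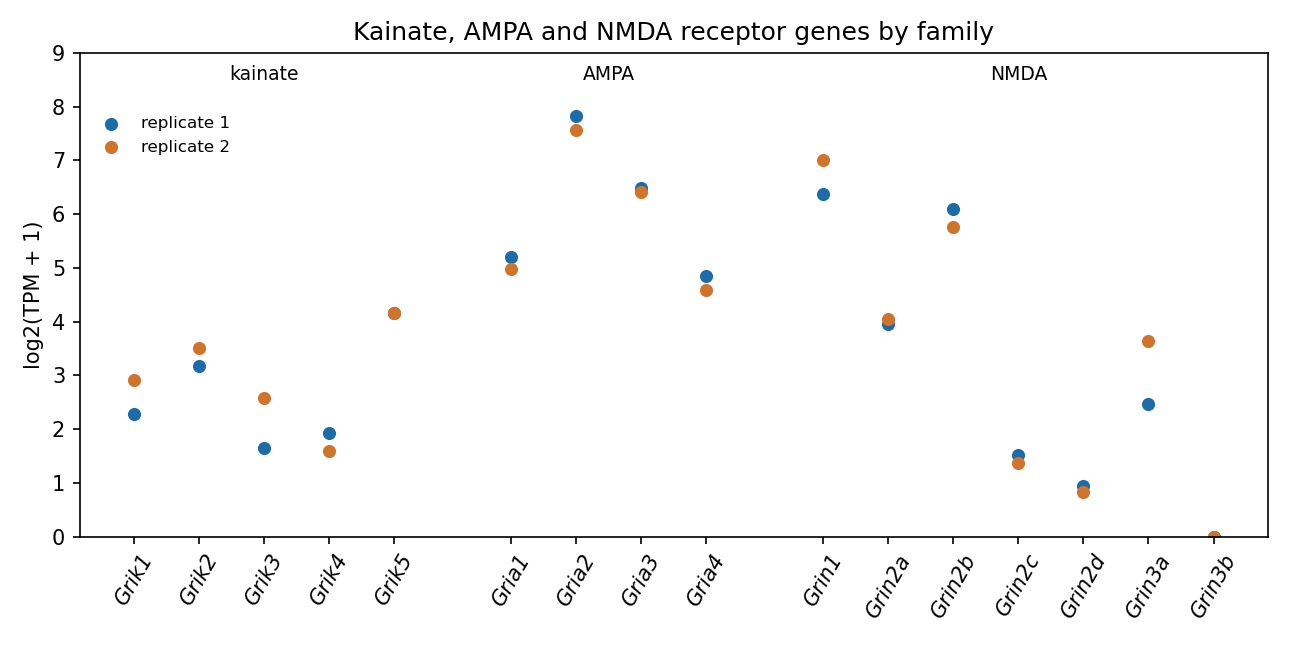
log2(TPM + 1) of the kainate, AMPA and NMDA receptor subunit genes in each area, grouped by family, 1 point per area. The kainate points lie below those of Gria2, Gria3, Grin1 and Grin2b in both areas, and Grin3b lies at 0.

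Auxiliary subunits of AMPA receptors were present as well. Of the 7 listed, 6 reached 1 TPM in both areas, led by Cnih2 at 71.9 ± 27.5 TPM (SD, n = 2), Cacng3 at 53.0 ± 21.2 and Cnih3 at 44.5 ± 1.95. Neto1 and Neto2 were lower than each of these 3 in both areas, and higher than every other gene of that list in both.

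Among 15 genes known to bind, anchor or edit kainate receptors, 13 reached 1 TPM in both areas. Ctnnb1, which encodes beta-catenin and links cadherin complexes to the receptors, led at 56.1 ± 10.6 TPM (SD, n = 2). Dlg1, a scaffold protein, followed at 37.1 ± 2.65, and Adarb1, the enzyme that edits a pore codon of Grik1, Grik2 and Gria2 transcripts, at 27.8 ± 6.08. Editing itself is not recorded in these tables. C1ql2, a secreted protein that recruits kainate receptors at hippocampal mossy fibre synapses, had 0 counts in both areas. The median log2 ratio of the list, replicate 2 over replicate 1, was -0.14, with 6 genes higher in replicate 2, 8 higher in replicate 1 and 1 beyond 2-fold, higher in replicate 1. That gene, C1ql3, a relative of C1ql2, had 27.8 TPM in replicate 1 and 12.96 in replicate 2, and is named after its value was seen.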

How the data were processed

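The deposited gene and transcript tables give an expected count per feature, which need not be whole, and TPM, which the authors scaled over all features, spike-ins and mitochondrial genes included. The deposited transcript tables also give each transcript's percent of its gene's TPM. The tables give bounds of TPM around a posterior mean. The assembly was mm10 with annotation M4, per the deposited text files; the aligner and quantifier are not given in the sources used here. Strand use is not given either, so reads of overlapping genes cannot be told apart. An antisense gene lies within Neto1 in M21.

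Symbols, positions and transcript structures came from GENCODE M21 of GRCm38, matched by identifier without version: 42462 of 43346 Ensembl rows had a symbol. Of 116 list genes 1 was not matched. The members, lists and rules were chosen with earlier results of these data known. Named were all 7 members, of each receptor or partner list the 3 highest by mean TPM and those at 0 counts, the nearest ionotropic receptor gene of each member (that of Grik1 and of Grik3 is not reported here), and transcripts at 5% or more. Sst, Pvalb, Gad1, Gad2, Slc32a1, Cck, Rprm, Ntsr1, Pcp4, Lamp5, C1ql3 and the Grik2 transcripts under 5% were named after their values were seen. Copying of one library into the other was checked (chi-square 69.5 per degree of freedom, over 14131 features with 50 or more summed counts). No test was run, since each side is 1 library. Fold calls were tried on simulated counts with counting error alone, where the changed genes were above every Grik gene in level. This does not show how reliable the calls are between these areas. The 26248 numbered rows, holding 20.3 and 5 counts, entered no gene comparison but are in the listed features and the depth. Spike-ins held 7.19% of the depth in replicate 1 and 7.94% in replicate 2. This depth is the total behind counts per total. The difference between areas was taken on log2(TPM + 1); the plain ratio of TPM and the GABAergic sum without Sst were added after the data were seen. Other alternatives were other TPM minimums, a pseudocount of 0.1, CPM with TMM factors (edgeR 4.0.16 in R 4.3.3, expected counts rounded to whole numbers), nuclear genes alone, posterior means, unscaled counts and each library alone. Python 3.11.15, pandas 2.3.3, scipy 1.17.1 and matplotlib 3.10.9 were used.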

Additional observations from a re-analysis of the deposited data

How the results depend on the processing

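With 2 libraries that may share an animal, the spread is that of areas, and intervals of counts cover counting error only. Of 84 recomputed values, 28 leave out 1 library; with 2 libraries these stay within 1 SD by construction and say nothing of stability, and without replicate 2 Grik3 is at 2.15 TPM against a mean of 3.55. Of the other 56, 40 stayed within the spread between the areas or on the same side of 2-fold. At a minimum of 5 TPM, 4 of the 7 genes remained in both areas. With a pseudocount of 0.1, with CPM and TMM factors, and with the plain ratio of TPM (chosen after seeing the data), 1 gene, Grik3, was beyond 2-fold, in place of none. Neto1 held 44.4% of summed Neto expected counts against 56.1% of TPM, so which Neto gene leads depends on division by length. The log2 ratio of Grik5 turned from 0.0032 to -0.038 with CPM, both near 0. TPM of nuclear genes alone raised the level of every member, for example Neto1 to 38.1. By expected counts the leading transcript of Grik4 took 70.9% and that of Grik2 79.3%.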

Other observations

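The gene models behind the deposited values differ from M21 for some members. The Neto1 transcript has 3531 bases in the tables and 8352 in M21, with a coding length of 1599. Grik1-201 has 2601 bases in the tables, fewer than the 2715 coding bases of its M21 version. Grik3-201 at 8973 bases, Neto2-201 at 5610 and both Grik4 transcripts have the same length in the tables and in M21. How the shorter models bear on the Neto1 and Grik1 levels was not tested.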
